A study of Mus musculus with 9 samples.

Results

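The step from postnatal day 50 to postnatal day 65 was examined in mouse ovaries that the series' design text calls tumour samples, by comparing 3 RNA-seq libraries of day 65 with 3 of day 50. These are 6 of the 9 libraries of a time course, whose other 3 libraries, of day 8, entered the filter on low counts, the scaling and the estimate of the spread. With the 6 libraries alone 16359 genes were tested. All groups share the strain C57BL/6, the tissue (ovary) and the genotype, an oocyte-specific knock-in named PIK3CA*, so the labels separate the groups by age alone and no ovary without the knock-in was compared. The promoter or Cre line that restricts the knock-in to oocytes, the residue that it changes, and whether each library is a different animal were not given in the sources used here. The p-values therefore reflect differences among these libraries, and those may be technical. Of the 55487 genes in each table, 17747 passed a filter on low counts and were tested. A gene is said to have risen or fallen where edgeR's quasi-likelihood test gave a Benjamini-Hochberg adjusted p under 0.05 over these 17747 genes. Levels are counts scaled to library size with TMM factors (CPM), and log2 fold changes are day 65 minus day 50. Each gene and gene list is given as fitted (before) and after each library's trend of level on gene length had been removed (after). That trend differed between the 2 ages.

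PIK3CA encodes the catalytic subunit of phosphoinositide 3-kinase (PI3K), which makes the membrane lipid that recruits the kinase AKT. AKT phosphorylates FOXO transcription factors and so keeps them out of the nucleus, and it activates mTOR, a kinase that raises translation. In the ovary, oocytes sit in follicles of granulosa cells, which respond to follicle-stimulating hormone and make estradiol and inhibins, and theca cells outside the follicle make androgens under luteinizing hormone. Granulosa cell tumours arise from the follicle's somatic cells, and a surface epithelium related to the mesothelium covers the organ.

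Total expected counts ran from 15007043 to 18868772 in the 6 libraries. Across genes, Spearman's rho was 0.991 to 0.992 within day 50, 0.975 to 0.983 within day 65 and 0.864 to 0.915 between the ages. Ribosomal protein genes took 3.27% to 3.85% of the counts at day 50 and 10.5% to 13.6% at day 65, and mitochondrially encoded genes took 3.02% to 3.29% and 4.59% to 5.13%. Defining markers of the labelled tissue were present at both ages: per length, Foxl2 was at 173 ± 9.43 TPM and Inhbb at 829 ± 49.0 TPM at day 50, and at 147 ± 15.3 and 685 ± 66.1 TPM at day 65 (SD, n = 3). Other markers of follicle cells were further apart in TPM. Inha went from 3997 ± 432 to 857 ± 188 TPM, Gja1 from 3675 ± 239 to 1149 ± 83.4, Fst from 369 ± 16.6 to 158 ± 57.6, Amhr2 from 245 ± 21.7 to 120.5 ± 12.3 and Cyp17a1 from 117 ± 67.7 to 5.01 ± 2.40, with every day 65 library below every day 50 library. No test was run on TPM. In CPM the ages overlapped for Fst (388, 421 and 401 at day 50, 300, 444 and 263 at day 65). They also overlapped for Amhr2 (225, 261 and 199 at day 50, 235, 171 and 215 at day 65). Neither gene rose or fell (edgeR adjusted p = 0.336 and 0.656), so the size of these TPM differences depends on the scale. These are bulk libraries, in which fewer cells of a type and less RNA per cell cannot be told apart.

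Between the 2 ages 4883 genes (27.5% of those tested) rose and 5033 (28.4%) fell, 55.9% in all. The split moved to 3407 higher and 6183 lower when library size was the only scaling, because that scaling shifts the median log2 fold change over all genes from -0.055 to -0.31. Gene length ordered the changes. In the shortest of 10 equal bins, up to 805 bases, the median log2 fold change was 1.20, and 53.9% rose while 8.56% fell. In the longest bin, from 5002 bases, the median was -0.76, and 8.85% rose while 62.0% fell. The slope of log2 fold change on log2 length was -0.474. Against the day 50 mean the slope was -0.527, -0.439 and -0.423 in the 3 day 65 libraries and -0.036, -0.034 and 0.070 in the 3 day 50 libraries, so the ages did not overlap. A slope of the same sign separated libraries of a single age: day 8 replicate 1 against the other 2 day 8 libraries gave -0.236. Across the 17747 genes, which are not independent replicates, that difference within day 8 correlated with the day 65 minus day 50 change at Pearson's r of 0.186, and at 0.0843 once the length trend was removed from both.

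With each library's length trend removed, the shortest and the longest bin had medians of 0.068 and -0.0055. The slope of log2 fold change on log2 length was then 0.064. The median over all genes tested was 0.0076, and 4513 genes (25.4%) rose and 4152 (23.4%) fell, 48.8% in all. Before and after removal 6818 genes had a call of the same direction, 3409 higher and 3409 lower. The 1453 rises found only before removal had a median length of 980 bases and the 1586 falls found only before removal one of 4356 bases. After removal 1066 further genes rose and 722 further genes fell, and 59 genes were called in opposite directions. Removal takes out any real change that goes with length as well, and whether the trend comes from the tissue or from the preparation of the RNA was not tested. A gene that overlaps ribosomal RNA also differed between the ages. AY036118, a long noncoding RNA gene whose exon bases all lie within the ribosomal RNA gene CT010467.1, was at 0 CPM in the 3 day 8 and the 3 day 50 libraries and at 2916, 2401 and 952 CPM in the 3 day 65 libraries. CT010467.1 itself was measured at 8193, 10800.1 and 23016 CPM at day 50 and 9735, 11339 and 4895 CPM at day 65, with no call (edgeR adjusted p = 0.272), and reads of the 2 overlapping genes cannot be told apart with certainty. The part of these reads in the length trend was not tested.

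**Figure D1:**
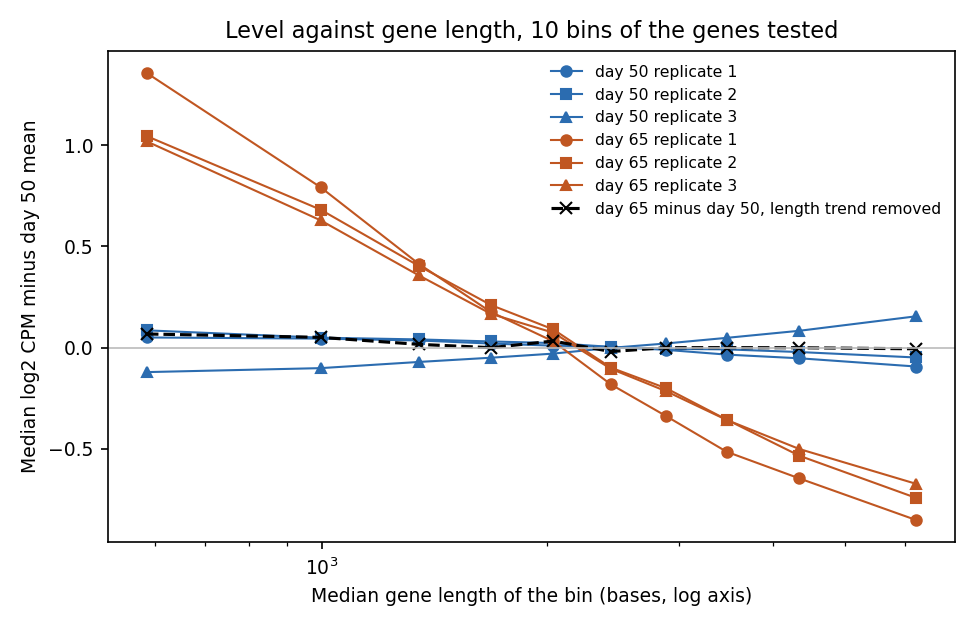
Median log2 CPM minus the day 50 mean (y axis) in 10 bins of genes by length (x axis, bases, log scale), 1 line for each day 50 library (blue) and each day 65 library (orange), and the fitted change after the length trend was removed (black, dashed). The 3 day 65 libraries run from above 1 in the shortest bin to below -0.6 in the longest, while the day 50 libraries stay within 0.16 of 0.

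Genes with the largest rises and falls were taken from those called before and after removal, with at least 10 CPM on average and no overlap between the ages. Left out were genes with only a predicted or clone name, segments of the antigen receptor loci, and biotypes other than protein-coding and long noncoding. Among those, AY036118 rose by at least 38347-fold, and Gm28037, whose exon bases all overlap Rpl24, went from 71.7 ± 31.1 CPM at day 50 to 0 in all 3 day 65 libraries, at least 1069.5-fold lower, both folds against a limit of 3 counts over the group at 0. The largest rises among the genes kept were of several kinds. Usp50 (chromosome 2, 126709096 to 126783458 on GRCm38), which encodes a member of the ubiquitin-specific protease family, was measured at 0.743, 1.17 and 0.306 CPM at day 50 and 157, 57.8 and 113 CPM at day 65. All day 65 libraries lay far above all day 50 libraries, with a log2 fold change of 7.20 (SE 0.50, edgeR adjusted p = 1.61e-05), and 7.19 (edgeR adjusted p = 1.42e-05) after removal. Cdkn2a (chromosome 4, 89274471 to 89294653), whose locus encodes a cyclin-dependent kinase inhibitor and ARF, was measured at 0.972, 0.780 and 1.02 CPM at day 50 and 49.5, 16.4 and 26.2 CPM at day 65. It was near 1 CPM in each day 50 library, with a log2 fold change of 5.04 (SE 0.43, edgeR adjusted p = 3.08e-05), or 4.21 (edgeR adjusted p = 2.93e-05) after removal. Also among the 15 largest rises were Bdkrb2, a bradykinin receptor (0.388 ± 0.287 to 55.5 ± 35.4 CPM), Tbx1, a T-box transcription factor (1.56 ± 0.242 to 38.7 ± 9.86 CPM), the pancreatic protease genes Ctrb1 (3.32 ± 2.27 to 189 ± 95.8 CPM) and Cela1 (11.2 ± 2.64 to 264 ± 108 CPM), and the macrophage products Retnla (1.56 ± 2.27 to 155 ± 99.8 CPM) and Chil3 (1.12 ± 1.60 to 69.4 ± 55.7 CPM). The lack of overlap between the ages in all 15 follows from the rule that chose them. Day 65 replicate 1 was the highest library for Usp50, Cdkn2a, Bdkrb2, Ctrb1, Cela1, Retnla and Chil3. The fold moved by over 1.5 times with 1 library left out (log2 fold changes given) for Bdkrb2 (7.88 without day 50 replicate 3, 6.45 without day 65 replicate 1), Ctrb1 (6.51 without day 50 replicate 3), Retnla (9.21 without day 50 replicate 3) and Chil3 (8.39 without day 50 replicate 3, 5.06 without day 65 replicate 1).

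The largest falls by the same rule were of several kinds too. Pcdh9 (chromosome 14, 93013410 to 93890679), a protocadherin, was measured at 23.3, 22.6 and 25.6 CPM at day 50 and 0.332, 0.131 and 0.172 CPM at day 65. The day 65 libraries were close to the limit of detection, with a log2 fold change of -6.82 (SE 0.51, edgeR adjusted p = 1.87e-05), and -6.26 (edgeR adjusted p = 2.16e-05) after removal. Npr3 (chromosome 15, 11839896 to 11905674), the clearance receptor for natriuretic peptides, fell from 143 ± 11.1 to 2.58 ± 0.815 CPM, and Dpp10, a subunit that modulates potassium channels, from 137 ± 11.3 to 2.45 ± 1.14 CPM. Nos1ap, an adaptor of neuronal nitric oxide synthase, fell from 41.4 ± 7.79 to 1.22 ± 0.119 CPM, and Dgkb, a diacylglycerol kinase, from 47.7 ± 4.38 to 1.21 ± 0.446 CPM. Wnt2b, a WNT ligand, and Cdh13, a cadherin held by a lipid anchor, fell from 81.6 ± 2.90 to 2.42 ± 2.35 CPM and 30.6 ± 2.86 to 0.973 ± 0.142 CPM. Galnt2, a glycosyltransferase, fell from 93.3 ± 12.3 to 1.90 ± 0.582 CPM, but 90% of its exon bases are shared with Gm20388, so its reads cannot be assigned with certainty. Fshr, the receptor for follicle-stimulating hormone, is the member of this group that marks granulosa cells and is described next. Of the 15 largest falls, Npr3, Dgkb, Nos1ap and Aff2 had the smallest edgeR adjusted p, 5.53e-06, and Stum the largest, 7.41e-04. In Stum the day 65 libraries spread widely, and it was measured at 78.9, 92.9 and 69.8 CPM at day 50 and 0, 1.37 and 7.30 CPM at day 65. With 1 library left out the fold changed by over 1.5 times (log2 fold changes given) for Wnt2b (-6.22 without day 65 replicate 3) and Stum (-6.74 without day 65 replicate 3).

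Several genes of the granulosa response to gonadotropins and of steroid synthesis fell. For comparison with the list counts below, 27.5% of all genes tested rose and 28.4% fell before removal, and 25.4% and 23.4% after it. In the granulosa cell list 2 of 20 genes tested rose and 9 fell, and after length removal 4 rose and 8 fell, with a median log2 fold change of -0.76 before and -0.53 after. Fshr (chromosome 17, 88985170 to 89200612) was measured at 25.5, 28.4 and 20.4 CPM at day 50 and 0.166, 1.11 and 0.690 CPM at day 65. All day 65 libraries were far below all day 50 libraries, with a log2 fold change of -5.17 (SE 0.81, edgeR adjusted p = 5.81e-04), and -5.10 (edgeR adjusted p = 7.65e-04) after removal. Kitl (chromosome 10, 100015630 to 100100413), the KIT ligand with which granulosa cells signal to oocytes, was measured at 237, 291 and 325 CPM at day 50 and 14.01, 25.7 and 21.4 CPM at day 65. The ages did not overlap, with a log2 fold change of -3.80 (SE 0.23, edgeR adjusted p = 7.94e-06), and -3.20 (edgeR adjusted p = 6.60e-06) after removal. Nr5a2, a nuclear receptor needed for ovulation, was measured at 637, 668 and 695 CPM at day 50 and 110.1, 180.4 and 129 CPM at day 65. Cyp19a1, the aromatase that makes estradiol, was measured at 20.2, 21.7 and 20.1 CPM at day 50 and 8.87, 7.20 and 4.43 CPM at day 65. Both fell, Nr5a2 with log2 fold changes of -2.25 before and -1.68 after removal and Cyp19a1 with -1.60 before and -1.49 after (edgeR adjusted p = 3.55e-04 and 0.0234 before). The inhibin alpha subunit Inha had log2 fold changes of -1.42 before and -1.73 after removal, the estrogen receptor Esr2 of -0.94 before and -0.60 after, and the gap junction gene Gja1 of -0.85 before and -0.53 after, where its call ended (edgeR adjusted p = 0.111). The call of Cyp19a1 was lost without replicate 1, 2 or 3 of day 50 or replicate 2 or 3 of day 65 (edgeR adjusted p = 0.0542 to 0.0695). Its libraries of day 50 and day 65 did not overlap, but the spread is estimated with day 8 as well. Within day 8, replicate 1 lay 2.19 log2 units above the mean of replicates 2 and 3 for Cyp19a1. The part of that difference in these p-values was not tested. The call of Gja1 was lost without replicate 2 or 3 of day 50 or replicate 3 of day 65 (edgeR adjusted p = 0.0516 to 0.0731). The number of granulosa cell members that rose was 2 with all libraries and 0 without day 50 replicate 1, day 50 replicate 2 or day 65 replicate 3, 1 without day 50 replicate 3 or day 65 replicate 1 and 4 without day 8 replicate 1.

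Not every granulosa gene fell. Foxl2, a transcription factor that maintains granulosa identity, was measured at 311, 301 and 319.7 CPM at day 50 and 529, 396 and 474 CPM at day 65. Grem1, a BMP antagonist, was measured at 54.9, 62.2 and 93.4 CPM at day 50 and 103, 146 and 126 CPM at day 65. In both genes all day 65 libraries exceeded all day 50 libraries, with log2 fold changes of 0.59 before and 0.96 after removal for Foxl2 and 0.84 before and 1.37 after for Grem1 (edgeR adjusted p = 0.0220 and 0.0451 before). The orphan receptor Nr5a1 and the inhibin subunit Inhbb had log2 fold changes of 0.73 and 0.55 with no call, and rose after removal (1.04 and 1.11, edgeR adjusted p = 0.0242 and 0.0113). In TPM the order was the opposite for Foxl2 and Inhbb, whose means, given above, were lower at day 65. Their deposited lengths, 3256 and 4255 bases, were the same in all 6 libraries, so their own lengths do not set this difference. TPM also depends on the lengths of all other transcripts in a library. The mean length weighted by TPM was 1727, 1733 and 1828 bases at day 50 and 1181, 1272 and 1293 bases at day 65. The part of this shift in the reversal was not tested. The direction of both depends on how each library is scaled. Amhr2, Fst, Hsd17b1 and Serpine2 had no call in either fit. The call of Foxl2 was lost without replicate 1, 2 or 3 of day 50 or replicate 1 or 3 of day 65 (edgeR adjusted p = 0.0529 to 0.0730). The call of Grem1 was lost without replicate 1 or 2 of day 50 or replicate 2 or 3 of day 65 (edgeR adjusted p = 0.0839 to 0.151).

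In the theca and steroidogenesis list 1 of 14 genes tested rose and 9 fell, and after removal 1 rose and 8 fell, with a median log2 fold change of -1.46 before and -1.63 after. Cyp17a1, the enzyme of androgen synthesis in theca cells, was measured at 185, 56.8 and 96.2 CPM at day 50 and 5.47, 6.41 and 11.96 CPM at day 65. Day 50 replicate 1 was the highest, and all day 65 libraries were far below all of day 50, with log2 fold changes of -3.81 before and -3.96 after removal (edgeR adjusted p = 0.00172 and 0.00153). Cyp11a1, which cleaves the side chain of cholesterol, was measured at 549, 324 and 387 CPM at day 50 and 72.3, 105 and 145 CPM at day 65. Hsd3b1, the next enzyme of the pathway, was measured at 2888, 2835 and 2602 CPM at day 50 and 685, 1120.5 and 1056 CPM at day 65. Both fell, with log2 fold changes of -1.97 before and -1.98 after removal for Cyp11a1 and -1.54 before and -1.71 after for Hsd3b1 (edgeR adjusted p = 0.0201 and 0.0125 before). Star, which carries cholesterol into mitochondria, had log2 fold changes of -1.39 before and -1.18 after. Scarb1, the receptor that takes up cholesterol from lipoproteins, was the member that rose, from 329.6 ± 31.5 to 657 ± 114 CPM (0.99 before and 1.08 after). Lhcgr, the receptor for luteinizing hormone, fell before removal (-1.93, edgeR adjusted p = 0.0320) and missed the threshold after it (-1.56, edgeR adjusted p = 0.0766). In the corpus luteum list, which shares 4 members with this one, 2 of 10 genes tested rose and 6 fell, and after removal 2 rose and 3 fell. The call of Cyp11a1 was lost without replicate 1 of day 50 or replicate 1 or 2 of day 65 (edgeR adjusted p = 0.0582 to 0.0723). The call of Lhcgr was lost without replicate 1 or 3 of day 50 or replicate 1 or 2 of day 65 (edgeR adjusted p = 0.0786 to 0.0990). The spread of both genes is estimated with day 8 as well. There replicate 1 lay above the mean of replicates 2 and 3 by 2.46 log2 units for Cyp11a1 and 2.72 for Lhcgr. The part of these differences in the p-values was not tested.

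**Figure D2:**
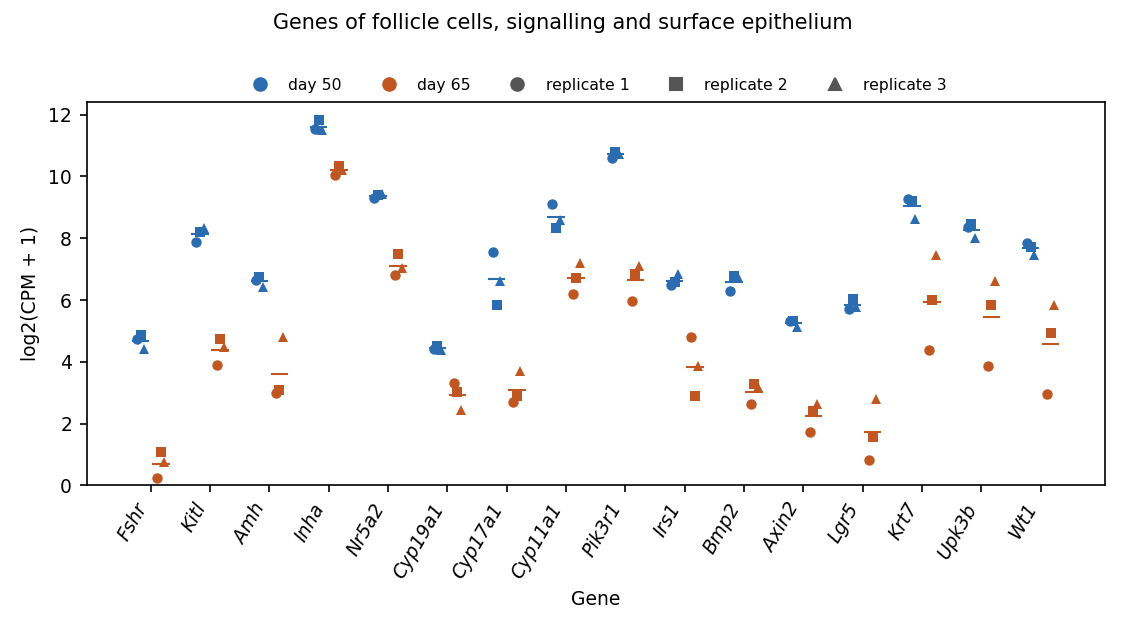
Level of 16 genes, as log2(CPM + 1) on the y axis, in each day 50 library (blue) and each day 65 library (orange), with a bar at the mean of 3 libraries and a marker shape for each replicate. For each of the 16 genes the 3 day 65 libraries lie below the 3 day 50 libraries, and in Krt7, Upk3b, Wt1 and Lgr5 day 65 replicate 3 is the highest and replicate 1 the lowest of day 65.

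Within the PI3K pathway the regulatory subunit gene Pik3r1 (chromosome 13, 101680563 to 101768217) was measured at 1551, 1789.9 and 1704 CPM at day 50 and 62.3, 113 and 136 CPM at day 65. The ages were separated by more than a factor of 10, with a log2 fold change of -4.02 (SE 0.29, edgeR adjusted p = 1.64e-05), and -3.42 (edgeR adjusted p = 9.11e-06) after removal. The length that the tables give for Pik3r1, a mean over its transcripts weighted by abundance, was 4115, 3889 and 3932 bases at day 50 and 6289, 5144 and 5591 bases at day 65. The day 65 lengths all exceeded those of day 50. Shifts of this kind occurred in other genes and in both directions. The mean length went from 738 to 1103 bases in Cdk1 and from 2710 to 1462 bases in Ctnnb1. Per length, Pik3r1 led the regulatory subunits at day 50 with 767 ± 73.0 TPM, against 62.0 ± 0.918 for Pik3r2 and 46.4 ± 5.40 for Pik3r3, which shares 24.3% of its exon bases with another annotated gene. At day 65 Pik3r2 led with 62.7 ± 5.65 TPM, against 20.0 ± 9.95 for Pik3r1 and 11.1 ± 1.81 for Pik3r3. Pik3ca itself was measured at 114, 126 and 135 CPM at day 50 and 75.6, 64.5 and 78.7 CPM at day 65. Its fall, with a log2 fold change of -0.78 (SE 0.17, edgeR adjusted p = 0.00356), ended after removal at -0.28 (edgeR adjusted p = 0.144), and whether transcripts of the knock-in are counted in this row was not given in the sources used here.

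The PI3K, AKT and mTOR list, which holds these genes, consists mostly of long genes. Its tested members have a median length of 4445 bases, and 2 of 23 genes tested rose and 14 fell before removal, whereas 6 rose and 6 fell after it, with a median log2 fold change of -0.69 before and -0.17 after. The repressor Tsc1 fell before removal (-0.95) and had no call after it (-0.17, edgeR adjusted p = 0.208). Mtor and Rictor fell in both fits, with log2 fold changes of -1.03 before and -0.31 after removal and -1.37 before and -0.46 after. Eif4ebp1, the translation repressor that mTOR phosphorylates, was measured at 54.7, 51.4 and 44.6 CPM at day 50 and 184, 115 and 128 CPM at day 65. It rose in both fits, with log2 fold changes of 1.501 before and 0.92 after removal (edgeR adjusted p = 2.38e-04 and 8.51e-04).

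Among FOXO targets and PI3K feedback genes 2 of 18 genes tested rose and 10 fell, and after removal 4 rose and 7 fell. Irs1, the adaptor that links the insulin and IGF receptors to PI3K, was measured at 87.7, 94.5 and 114 CPM at day 50 and 27.0, 6.35 and 13.5 CPM at day 65. The ages did not overlap, with log2 fold changes of -2.67 before and -1.74 after removal (edgeR adjusted p = 5.07e-04 and 0.00618), while 30.9% of its exon bases are shared with another annotated gene. Pik3ip1, a PI3K inhibitor, Sesn3, a FOXO-induced inhibitor of mTOR complex 1, and Txnip, an inhibitor of glucose uptake, also fell in both fits, with log2 fold changes of -1.64 before and -1.71 after removal, -1.95 before and -1.09 after and -1.53 before and -1.49 after. The FOXO target Bcl6 fell from 22.5 ± 1.31 to 6.57 ± 0.732 CPM. Cdkn1a, the cyclin-dependent kinase inhibitor p21, rose from 63.5 ± 11.4 to 127 ± 52.0 CPM (1.004 before and 0.90 after). The insulin receptor Insr turned with the length trend, from -0.46 before (edgeR adjusted p = 0.0289) to 0.40 after (edgeR adjusted p = 0.0435), and Foxo1 and Foxo4 had no call in either fit. Leaving out 1 library moved the fold by over 1.5 times (log2 fold changes given) for Irs1 (-3.31 without day 65 replicate 1). The call of Insr was lost without replicate 3 of day 50 or replicate 2 or 3 of day 65 (edgeR adjusted p = 0.0853 to 0.115).

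In the WNT and beta-catenin list 2 of 13 genes tested rose and 10 fell, with the same 12 calls after removal, and a median log2 fold change of -1.15 before and -0.93 after. Axin2, a scaffold of the complex that destroys beta-catenin, was measured at 39.1, 39.4 and 34.2 CPM at day 50 and 2.32, 4.25 and 5.23 CPM at day 65. Rnf43, a ligase that removes WNT receptors, was measured at 15.8, 15.7 and 14.4 CPM at day 50 and 0.498, 1.05 and 2.64 CPM at day 65. In both genes the ages were far apart, with log2 fold changes of -3.23 before and -2.86 after removal for Axin2 and -3.39 before and -3.12 after for Rnf43 (edgeR adjusted p = 2.82e-05 and 3.07e-04 before). The transcription factors Sp5, Lef1 and Tcf7 had log2 fold changes of -2.94 before and -2.96 after removal, -2.33 before and -2.44 after and -1.22 before and -1.15 after. Ctnnb1, beta-catenin itself, fell from 703 ± 13.3 to 399.8 ± 20.4 CPM, and Nkd2 and the cyclin Ccnd1 were the members that rose (1.34 before and 1.82 after, and 0.66 before and 1.08 after). Of Ccnd1's exon bases 23.4% are shared with another gene. The fold moved by over 1.5 times with 1 library left out (log2 fold changes given) for Rnf43 (-4.26 without day 65 replicate 3), Sp5 (-4.08 without day 65 replicate 3) and Lef1 (-3.06 without day 65 replicate 3). The call of Ccnd1 was lost without replicate 2 or 3 of day 50 or replicate 3 of day 65 (edgeR adjusted p = 0.0840 to 0.108).

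In the TGF-beta family list 2 of 26 genes tested rose and 13 fell, and after removal 5 rose and 12 fell. Among the ligands, Bmp2 was measured at 76.6, 108 and 106 CPM at day 50 and 5.22, 8.70 and 7.99 CPM at day 65. Tgfb3 was measured at 153, 149 and 149 CPM at day 50 and 15.5, 31.0 and 46.1 CPM at day 65. Both fell with no overlap, by log2 fold changes of -3.72 before and -3.29 after removal for Bmp2 and -2.28 before and -1.91 after for Tgfb3 (edgeR adjusted p = 7.93e-06 and 4.08e-04 before). Bmp7 rose from 6.67 ± 0.538 to 15.5 ± 4.70 CPM (1.21 before and 1.68 after). Of the targets, Id2, an inhibitor of helix-loop-helix factors, was measured at 137, 155 and 142 CPM at day 50 and 8.04, 30.0 and 18.0 CPM at day 65 and fell (-2.94 before and -3.32 after, edgeR adjusted p = 1.72e-04 before). Id1 went the other way before removal (0.74, edgeR adjusted p = 0.0378) and had no call after it (edgeR adjusted p = 0.960). Of the signal carriers, Smad2, Smad4, Smad6 and Smad7 fell in both fits, and Smad3 and Smad5 had no call before removal and rose after it (0.54 and 0.54, edgeR adjusted p = 0.0497 and 0.00171). The rise of Smad3 had no call once a trend on GC content was removed too (edgeR adjusted p = 0.0741). The receptor Bmpr2 fell before removal (-1.19) with no call after it (edgeR adjusted p = 0.415). The call of Id1 was lost without replicate 3 of day 8, replicate 2 or 3 of day 50 or replicate 1 or 2 of day 65 (edgeR adjusted p = 0.0514 to 0.144).

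Markers of the surface epithelium and mesothelium had the largest share of falls among the cell type lists: 0 of 14 genes tested rose and 12 fell, and after removal 0 rose and 13 fell, with a median log2 fold change of -2.63 before and -2.38 after. The summed level of the list was 1837 to 2601 CPM at day 50 and 398 to 894 CPM at day 65, and of the day 65 libraries replicate 3 was the highest. Krt7, a keratin of simple epithelia, was measured at 611, 592 and 395 CPM at day 50 and 20.1, 62.9 and 174 CPM at day 65. Upk3b, a mesothelial uroplakin, was measured at 329, 348 and 256 CPM at day 50 and 13.6, 56.7 and 97.0 CPM at day 65. The fall held in both genes with no overlap, and the log2 fold changes were -2.63 before and -2.64 after removal for Krt7 and -2.47 before and -2.09 after for Upk3b (edgeR adjusted p = 0.00493 and 0.00420 before). Lgr5, a receptor for R-spondins and a stem cell marker of this epithelium, fell from 56.7 ± 6.45 to 2.90 ± 2.74 CPM. The transcription factors Wt1 and Lhx9, which granulosa or stromal cells can also express, fell from 206 ± 27.9 to 30.9 ± 24.8 CPM and from 80.5 ± 7.26 to 11.3 ± 5.30 CPM. Krt8, shared with other epithelia, had no call in either fit (-0.24 before and -0.29 after). With 1 library left out the fold changed by over 1.5 times (log2 fold changes given) for Krt7 (-3.68 without day 65 replicate 3), Upk3b (-3.14 without day 65 replicate 3), Lgr5 (-5.34 without day 65 replicate 3) and Wt1 (-3.49 without day 65 replicate 3).

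More oocyte genes fell than rose, with calls in both directions. In the oocyte list 3 of 25 genes tested rose and 8 fell, and after removal 2 rose and 12 fell. The falls before removal were near the share over all genes tested, of which 28.4% fell before removal and 23.4% after it. The median log2 fold change of the list was -1.77 before and -1.81 after. The zona pellucida gene Zp3 was measured at 17.3, 9.92 and 16.4 CPM at day 50 and 0.249, 0.393 and 8.85 CPM at day 65. Zp2 was measured at 22.8, 13.9 and 23.6 CPM at day 50 and 0.249, 0.327 and 9.49 CPM at day 65. Almost all of the day 65 signal of both came from replicate 3, with log2 fold changes of -2.12 before and -2.59 after removal for Zp3 and -2.51 before and -2.47 after for Zp2 (edgeR adjusted p = 0.0488 and 0.0313 before). Replicate 3 also held most of the day 65 signal of Padi6 (0.663, 1.64 and 14.9 CPM), H1foo (0.166, 0.0654 and 8.16 CPM) and Bmp15 (0, 0.523 and 6.09 CPM). The RNA-binding germ cell gene Dazl rose from 3.66 ± 1.25 to 15.2 ± 3.38 CPM (2.05 before and 2.28 after) and Tle6, a member of the subcortical maternal complex, from 35.0 ± 4.05 to 106 ± 23.1 CPM (1.60 before and 0.77 after). Gdf9, a growth factor that oocytes secrete, was measured at 35.3, 23.9 and 31.1 CPM at day 50 and 43.0, 35.5 and 49.7 CPM at day 65. It rose before removal (0.51, edgeR adjusted p = 0.0412) and had no call after it (0.35, edgeR adjusted p = 0.131). In TPM its mean was 32.0 ± 6.19 at day 50 and 26.4 ± 7.49 at day 65, so its direction depends on the scale. The Sertoli cell list, markers of the testicular counterpart of granulosa cells, had 1 member that rose and 6 that fell of 11 in both fits. Sox9 fell (-1.57 before and -1.05 after), as did Clu, from 4724 ± 347 to 1320.1 ± 353 CPM (-1.84 before and -2.03 after), and Sox8 rose (1.71 before and 1.92 after). Leaving out 1 library moved the fold by over 1.5 times (log2 fold changes given) for Zp3 (-5.44 without day 65 replicate 3) and Zp2 (-6.07 without day 65 replicate 3). The call of Zp3 was lost without replicate 1, 2 or 3 of day 8, replicate 1, 2 or 3 of day 50 or replicate 1 or 2 of day 65 (edgeR adjusted p = 0.0549 to 0.119). The call of Zp2 was lost without replicate 1 of day 8, replicate 1, 2 or 3 of day 50 or replicate 1 or 2 of day 65 (edgeR adjusted p = 0.0508 to 0.0814). The call of Gdf9 was lost without replicate 3 of day 8, replicate 2 or 3 of day 50 or replicate 1 or 3 of day 65 (edgeR adjusted p = 0.0599 to 0.168). The number of oocyte members that fell was 8 with all libraries and 3 without day 50 replicate 3, day 65 replicate 1 or day 65 replicate 2, 4 without day 50 replicate 1 or day 50 replicate 2, 5 without day 8 replicate 1 and 17 without day 65 replicate 3.

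Most genes of the mitosis and replication lists rose. In the mitosis list 19 of 25 genes tested rose and 0 fell, and after removal 22 rose and 0 fell, with a median log2 fold change of 0.88 before and 0.95 after. Promoters of such genes often hold a CCAAT box, bound by NF-Y, and a cell cycle genes homology region (CHR), bound by complexes that repress them early in the cycle. Of 25 mitosis genes, 20 had a promoter in RefSeq's table for GRCm38.p6 (250 bases before to 50 after the start). CCAAT was found on either strand in 85% of the 20 and in 37.4% of all 32851 promoters, and the CHR, searched as TTTGAA or TTCGAA on either strand, in 80% and 19.2%. Both were found in 75% and 7.52%. The 3 promoters below belong to the mitosis genes with the smallest p among those called in both fits whose promoter holds both elements, printed in the direction of the gene, with CCAAT or ATTGG and the CHR in either orientation in capitals. The 3 promoters are shown because these letters are what most members of the list share. A match is a description of the sequence, not evidence of binding.

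The 3 promoters lie at chr2:164769679-164769978 (Ube2c, plus strand), chr2:172370521-172370820 (Aurka, minus strand) and chr10:69352863-69353162 (Cdk1, minus strand).
Ube2c: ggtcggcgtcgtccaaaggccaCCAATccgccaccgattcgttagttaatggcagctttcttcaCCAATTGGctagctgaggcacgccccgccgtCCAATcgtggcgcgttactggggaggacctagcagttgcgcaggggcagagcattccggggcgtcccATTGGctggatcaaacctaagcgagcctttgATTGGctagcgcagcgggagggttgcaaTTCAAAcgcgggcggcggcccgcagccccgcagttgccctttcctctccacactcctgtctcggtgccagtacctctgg
Aurka: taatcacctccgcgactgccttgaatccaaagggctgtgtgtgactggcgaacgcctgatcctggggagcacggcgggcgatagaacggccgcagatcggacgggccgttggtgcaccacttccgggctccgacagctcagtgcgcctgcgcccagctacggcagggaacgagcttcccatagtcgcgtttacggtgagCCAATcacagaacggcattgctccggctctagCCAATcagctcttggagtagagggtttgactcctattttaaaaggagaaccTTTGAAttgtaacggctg
Cdk1: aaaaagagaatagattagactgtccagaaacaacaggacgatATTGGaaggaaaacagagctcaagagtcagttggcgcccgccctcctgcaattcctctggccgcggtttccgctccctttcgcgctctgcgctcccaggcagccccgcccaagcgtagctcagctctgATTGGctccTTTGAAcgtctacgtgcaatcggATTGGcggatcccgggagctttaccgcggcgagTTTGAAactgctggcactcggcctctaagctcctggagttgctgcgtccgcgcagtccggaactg

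Ube2c, which hands on ubiquitin for the anaphase-promoting complex and shares 22.8% of its exon bases with Tnnc2, was measured at 67.9, 70.9 and 65.9 CPM at day 50 and 267, 179 and 224 CPM at day 65. Aurka, the kinase that matures the spindle poles, was measured at 27.5, 26.1 and 28.9 CPM at day 50 and 61.4, 67.4 and 60.5 CPM at day 65. Cdk1, the kinase that drives entry into mitosis, was measured at 48.6, 56.2 and 55.8 CPM at day 50 and 145, 144 and 140.0 CPM at day 65. In these 3 genes every day 65 library exceeded every day 50 library, with log2 fold changes of 1.71 before and 0.99 after removal for Ube2c, 1.20 before and 1.09 after for Aurka and 1.42 before and 0.65 after for Cdk1 (edgeR adjusted p = 4.20e-05, 4.27e-05 and 7.01e-05 before). The proliferation antigen Mki67, a long gene, had log2 fold changes of 0.83 before and 1.77 after. Birc5, which is survivin, and Plk1, the polo-like kinase, rose from 27.2 ± 0.446 to 107 ± 9.27 CPM and from 44.7 ± 3.86 to 121 ± 23.3 CPM. Among members that did not pass before removal, Cenpf (0.031), Kif11 (0.27) and Bub1b (0.23) passed after it (0.75, 0.87 and 0.65).

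In the DNA replication list 23 of 29 genes tested rose and 1 fell, and after removal 25 rose and 0 fell, with a median log2 fold change of 0.76 before and 0.67 after. The core of the E2F site, searched as GCGGGAA on either strand, was found in 45.8% of 24 promoters of this list and in 4.60% of all promoters. Tyms, which makes thymidylate, was measured at 24.1, 24.7 and 24.8 CPM at day 50 and 83.8, 70.7 and 77.3 CPM at day 65. E2f1, a transcription factor of the switch into S phase, was measured at 19.04, 18.7 and 21.8 CPM at day 50 and 45.8, 38.6 and 55.4 CPM at day 65. Both rose with no overlap, with log2 fold changes of 1.65 before and 0.83 after removal for Tyms and 1.23 before and 1.46 after for E2f1 (edgeR adjusted p = 2.97e-04 and 2.16e-04 before). Pola1, the catalytic subunit of DNA polymerase alpha, fell before removal (-0.58, edgeR adjusted p = 0.00507) and had no call after it (edgeR adjusted p = 0.603).

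In the list of cyclin-dependent kinase inhibitors, D cyclins and p53 genes 8 of 16 tested members rose and 0 fell in each fit, and 7 rose in both. Cdkn2b, the neighbour of Cdkn2a, was measured at 3.09, 3.29 and 3.16 CPM at day 50 and 29.4, 14.98 and 13.5 CPM at day 65. It rose with no overlap, with log2 fold changes of 2.59 before and 2.23 after removal (edgeR adjusted p = 1.31e-04 and 3.33e-04). Cdkn2d and Ccnd3 rose from 10.5 ± 1.18 to 25.9 ± 3.77 CPM and from 42.4 ± 1.19 to 106 ± 22.4 CPM, while Trp53, Rb1 and Cdkn1b had no call in either fit.

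In the stromal fibroblast list 9 of 15 tested members rose and 2 fell in each fit, 8 and 2 of them in both, with a median log2 fold change of 0.73 before and 1.11 after, and the summed level of the list was 1969 to 2928 CPM at day 50 and 5673 to 5795 CPM at day 65. Col1a1 (chromosome 11, 94936224 to 94953042), a chain of type I collagen, was measured at 219, 154 and 362 CPM at day 50 and 1773, 1296 and 1694 CPM at day 65. Col1a2 was measured at 388, 278 and 597 CPM at day 50 and 1687, 1775 and 1799 CPM at day 65. Both rose with no overlap, by log2 fold changes of 2.70 before and 3.45 after removal for Col1a1 and 2.06 before and 2.74 after for Col1a2 (edgeR adjusted p = 1.28e-04 and 2.16e-04 before). The microfibril genes Mfap4 and Mfap5 rose from 30.3 ± 10.03 to 178 ± 15.01 CPM and from 13.9 ± 4.15 to 92.3 ± 15.8 CPM, and Ogn, the proteoglycan osteoglycin, fell from 183 ± 17.8 to 49.8 ± 30.8 CPM.

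In the list of collagens 16 of 41 genes tested rose and 8 fell, and after removal 19 rose and 7 fell. The basement membrane chains Col4a1 and Col4a2 were at 741 ± 234 to 1353 ± 52.8 CPM and 507 ± 158 to 1040.1 ± 170.5 CPM and rose, with log2 fold changes of 0.87 before and 1.40 after removal and 1.04 before and 1.82 after. Col4a5, a chain of the other collagen IV networks, was measured at 136, 147 and 138 CPM at day 50 and 5.39, 13.7 and 12.99 CPM at day 65. It fell with its neighbour Col4a6 and with Col4a3, by log2 fold changes of -3.70 before and -3.14 after removal, -3.75 before and -3.01 after and -2.30 before and -1.42 after (edgeR adjusted p = 6.12e-05, 2.93e-04 and 1.50e-04 before). The fibril chain Col11a1 fell from 442 ± 62.9 to 105 ± 10.4 CPM, and Col5a1, Col15a1 and Col26a1 rose from 71.6 ± 32.1 to 346 ± 46.7 CPM, from 55.4 ± 27.9 to 389 ± 107 CPM and from 11.3 ± 2.84 to 102 ± 18.7 CPM. The fold moved by over 1.5 times with 1 library left out (log2 fold changes given) for Col4a6 (-4.68 without day 65 replicate 3). The call of Col4a1 was lost without replicate 1 or 2 of day 50 or replicate 1, 2 or 3 of day 65 (edgeR adjusted p = 0.0606 to 0.117). The call of Col4a2 was lost without replicate 1 or 2 of day 50 or replicate 1 of day 65 (edgeR adjusted p = 0.0560 to 0.0677).

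In the mesenchymal transition list 8 of 17 genes tested rose and 2 fell, and after removal 10 rose and 1 fell. Fibronectin (Fn1) rose from 97.1 ± 36.2 to 299 ± 47.5 CPM (1.62 before and 2.12 after), integrin beta 3 (Itgb3) from 38.3 ± 10.9 to 104 ± 9.58 CPM (1.44 before and 2.17 after), and the transcription factor Twist1 from 4.49 ± 1.75 to 16.2 ± 2.12 CPM (1.85 before and 1.62 after). Zeb2, another factor of that group, fell (-2.02 before and -1.33 after). In the hedgehog list 4 of 10 genes tested rose and 1 fell, and after removal 4 rose and 0 fell. Those that rose in both fits included the receptor Ptch1 and the transcription factors Gli1 and Gli2, which are themselves targets of the pathway or carry its output. Gli1 was measured at 13.04, 8.64 and 18.1 CPM at day 50 and 26.5, 57.1 and 35.9 CPM at day 65, with log2 fold changes of 1.59 before and 2.04 after removal (edgeR adjusted p = 0.00715 and 0.00247). The ligands Ihh and Dhh had no call in either fit (-0.67 and -0.30 before removal).

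In the IGF axis list 5 of 14 genes tested rose and 3 fell, and after removal 6 rose and 4 fell. Igf1 rose from 218 ± 16.96 to 489 ± 169.6 CPM (1.16 before and 1.45 after). Of the binding proteins that hold IGFs outside cells, Igfbp3 was measured at 28.4, 18.2 and 27.3 CPM at day 50 and 243, 281 and 114 CPM at day 65. Igfbp5 was measured at 4023, 3935 and 3801 CPM at day 50 and 232, 256 and 669 CPM at day 65. They moved in opposite directions with no overlap between the ages, with log2 fold changes of 3.11 before and 3.21 after removal for Igfbp3 and -3.34 before and -2.67 after for Igfbp5 (edgeR adjusted p = 1.16e-04 and 2.01e-04 before). Igfbp4 and Igfbp7 rose (1.75 before and 1.85 after, and 1.46 before and 0.87 after), and Pappa, the protease that cleaves binding proteins, fell from 3.87 ± 0.560 to 0.458 ± 0.655 CPM. With 1 library left out the fold changed by over 1.5 times (log2 fold changes given) for Igfbp5 (-4.01 without day 65 replicate 3) and Pappa (-5.57 without day 65 replicate 3).

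**Figure D3:**
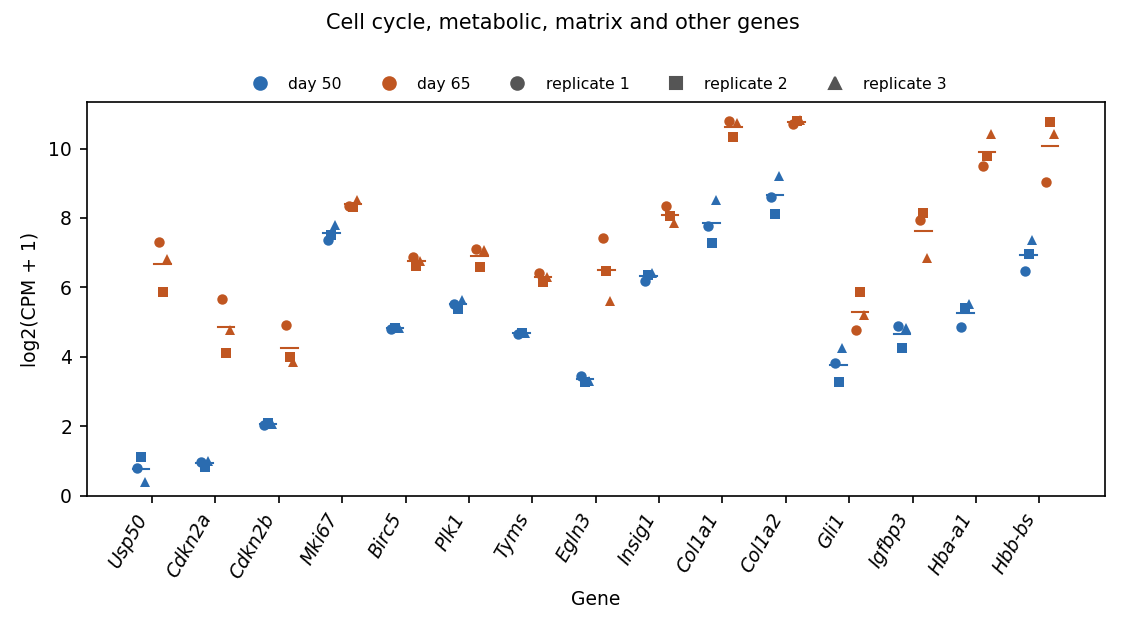
Level of 15 genes, as log2(CPM + 1) on the y axis, in each day 50 library (blue) and each day 65 library (orange), with a bar at the mean of 3 libraries and a marker shape for each replicate. In each of the 15 genes the 3 day 65 libraries lie above the 3 day 50 libraries, with the widest gap in Usp50.

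In the glycolysis and hypoxia list 17 of 25 genes tested rose and 4 fell, and after removal 16 rose and 3 fell, with a median log2 fold change of 0.73 before and 0.68 after. Egln3, an oxygen-sensing hydroxylase, was measured at 10.01, 8.75 and 8.87 CPM at day 50 and 172, 88.2 and 47.8 CPM at day 65, with log2 fold changes of 3.48 before and 3.71 after removal (edgeR adjusted p = 1.12e-04 and 1.42e-04). Gpi1 and Eno1, enzymes of the pathway, rose from 373 ± 11.9 to 991 ± 352 CPM and from 756 ± 48.1 to 1479 ± 501 CPM, the glucose transporter Slc2a1 from 42.4 ± 3.51 to 90.0 ± 46.4 CPM and the angiogenic factor Vegfa from 57.6 ± 4.96 to 124 ± 56.2 CPM. Gapdh and Aldoa rose before removal (1.15 and 0.90) and missed the threshold after it (edgeR adjusted p = 0.0627 and 0.0512). Car9, a carbonic anhydrase known as a hypoxia target, fell from 40.9 ± 8.51 to 9.19 ± 5.75 CPM, as did Aldoc and Pfkm. Leaving out 1 library moved the fold by over 1.5 times (log2 fold changes given) for Egln3 (2.88 without day 65 replicate 1) and Car9 (-2.77 without day 65 replicate 3). The call of Slc2a1 was lost without replicate 3 of day 50 or replicate 1 of day 65 (edgeR adjusted p = 0.0570 to 0.0662). The call of Vegfa was lost without replicate 2 of day 65 (edgeR adjusted p = 0.0525). The number of glycolysis and hypoxia members that rose was 17 with all libraries and 11 without day 50 replicate 3 or day 65 replicate 1.

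In the cholesterol list 5 of 24 genes tested rose and 9 fell before removal and 5 rose and 3 fell after it. Insig1, which holds the sterol sensor in the endoplasmic reticulum, was measured at 71.9, 81.8 and 83.9 CPM at day 50 and 322, 264 and 231 CPM at day 65. It rose with no overlap (1.78 before and 1.99 after, edgeR adjusted p = 3.27e-05 before), together with the mevalonate enzymes Mvk and Mvd (1.29 before and 1.05 after, and 1.23 before and 1.08 after). Srebf2, a transcription factor of the pathway, fell before removal (-0.56) and had no call after it (edgeR adjusted p = 0.859). The call of Srebf2 was lost without replicate 1, 2 or 3 of day 50 or replicate 2 or 3 of day 65 (edgeR adjusted p = 0.0622 to 0.106). The number of cholesterol synthesis and uptake members that fell was 9 with all libraries and 4 without day 50 replicate 2 or day 50 replicate 3 and 5 without day 50 replicate 1 or day 65 replicate 2.

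In the erythroid list 5 of 6 tested members rose and 0 fell in both fits, and its summed level was 194 to 386 CPM at day 50 and 1827 to 4645 CPM at day 65. Hbb-bs was measured at 87.6, 122.8 and 163 CPM at day 50 and 526, 1752 and 1376 CPM at day 65, with log2 fold changes of 3.29 before and 2.17 after removal (edgeR adjusted p = 3.29e-04 and 0.00550). Day 65 replicate 1 was the lowest of its age and still above all of day 50. Reads of the near-identical globin genes can be split between copies, so single members are uncertain. In the macrophage list 0 of 15 genes tested rose and 3 fell before removal, whereas 0 rose and 7 fell after it. Lyz2, lysozyme, was measured at 242, 222 and 177 CPM at day 50 and 47.9, 37.9 and 31.8 CPM at day 65 and fell in both fits (-2.45 before and -2.86 after, edgeR adjusted p = 7.33e-04 before), and Cd68 fell after removal (-1.48, edgeR adjusted p = 0.00259). Retnla and Chil3, which rose, are products of a subset of macrophages, and are not members of the list. In the endothelial list 5 of 14 genes tested rose and 3 fell, and after removal 4 rose and 3 fell. Shares over all genes tested were 27.5% and 28.4% before and 25.4% and 23.4% after. Plvap and Emcn rose (1.39 before and 1.34 after, and 1.25 before and 0.81 after), and the receptor genes Kdr and Tek fell (-1.72 before and -1.03 after, and -1.81 before and -1.24 after). Among interferon-induced genes Bst2 rose from 94.0 ± 6.60 to 743 ± 217 CPM while Oasl2 and Ifit1 fell (-1.50 before and -1.57 after, and -2.31 before and -2.12 after). The fold moved by over 1.5 times with 1 library left out (log2 fold changes given) for Ifit1 (-3.01 without day 65 replicate 3). The number of macrophage and antigen presentation members that fell was 3 with all libraries and 1 without day 50 replicate 1, day 50 replicate 2 or day 65 replicate 2 and 6 without day 65 replicate 1. The number of endothelial members that rose was 5 with all libraries and 2 without day 50 replicate 2 or day 65 replicate 2 and 3 without day 50 replicate 1, day 65 replicate 1 or day 65 replicate 3.

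The counts of several families of short genes changed when the trend was removed. Of 85 tested cytosolic ribosomal protein genes, with a median length of 624 bases, 82 rose before removal and 74 after it, and 0 fell in either fit. Their median log2 fold change went from 2.02 to 0.93. Of 77 nuclear genes of the respiratory chain 61 rose and 2 fell before removal and 23 rose and 5 fell after it, with medians of 1.35 and 0.24. The 23 had also risen before removal. Of 78 mitochondrial ribosomal protein genes 70 rose before removal and 40 after it, and of 39 proteasome genes 32 and 19. Of 16 small nucleolar RNA host genes 14 rose before removal and 12 after it, Gas5 among them, from 65.3 ± 1.72 to 277 ± 29.5 CPM (2.08 before and 0.92 after). Replication-dependent histones, whose transcripts lack a poly(A) tail, had 23 members that rose of 47 before removal and 15 after it. Of 13 mitochondrially encoded mRNAs 7 rose and 0 fell before removal, and 3 rose and 3 fell after it. The paralogs among ribosomal protein genes and their many pseudogenes can share reads, which makes single members uncertain. The number of replication-dependent histones members that rose was 23 with all libraries and 13 without day 50 replicate 3 and 15 without day 50 replicate 1.

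Counts of families of long genes changed as well. Of 32 chromatin regulators, with a median length of 6797 bases, 0 rose and 24 fell before removal, and 9 rose and 10 fell after it. Ep300 and Atrx, an acetyltransferase and a remodeller, fell in both fits (-1.74 before and -0.85 after, and -1.70 before and -0.88 after), while Crebbp, the acetyltransferase related to Ep300, turned from -0.61 to 0.33 (edgeR adjusted p = 0.0106 and 0.0432). Of 23 giant cytoskeletal and scaffold genes 16 fell before removal and 14 after it, and the 14 had also fallen before. The clustered protocadherins, whose exons overlap within each cluster, had 2 members that rose and 32 that fell of 43 before removal and 4 and 25 after it. Pcdhgc3 fell from 307 ± 34.0 to 37.9 ± 25.9 CPM and Pcdhgc4 rose from 130.3 ± 7.14 to 579 ± 164 CPM. Ephrins, semaphorins and plexins went from 10 higher and 29 lower of 57 to 18 and 16, and laminins and integrins from 5 and 14 of 24 to 8 and 7. Within the last group Itga1 (0.59 before and 1.57 after), Itga8 and Itgb3 rose and Itga6, Itga7, Itgb8 and Lama3 fell in both fits. With 1 library left out the fold changed by over 1.5 times (log2 fold changes given) for Pcdhgc3 (-3.66 without day 65 replicate 2). The call of Itga1 was lost without replicate 2 or 3 of day 8, replicate 1 or 2 of day 50 or replicate 1, 2 or 3 of day 65 (edgeR adjusted p = 0.0526 to 0.155). The number of laminins and integrins members that rose was 5 with all libraries and 2 without day 50 replicate 1, day 50 replicate 2 or day 65 replicate 1 and 3 without day 8 replicate 3 or day 65 replicate 2.

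**Figure D4:**
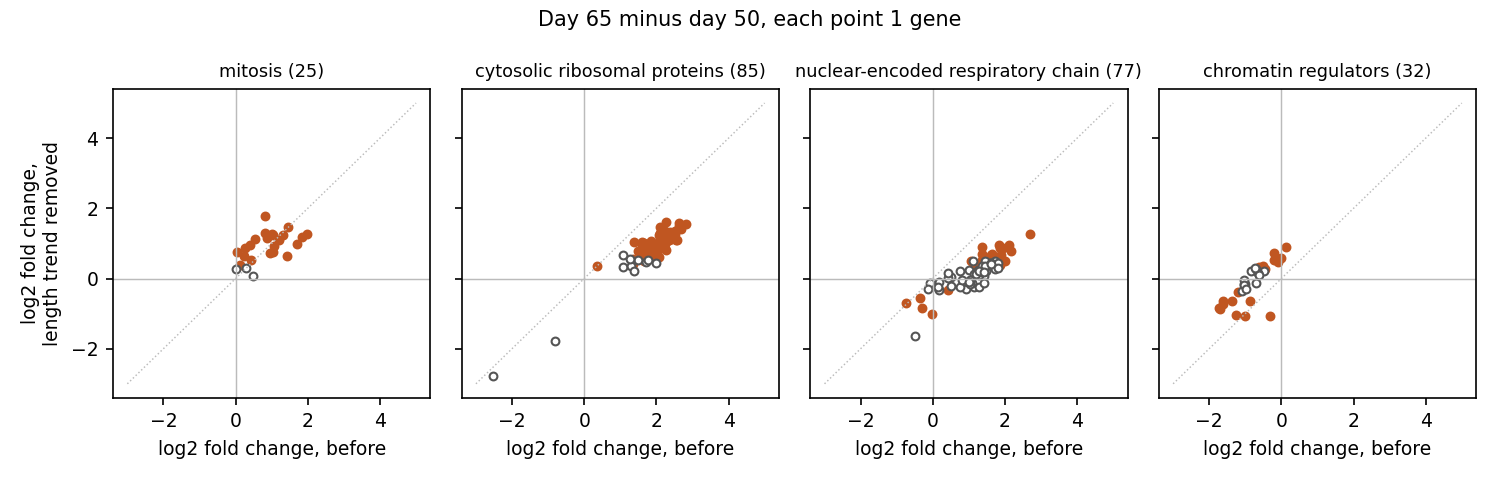
Log2 fold change, day 65 minus day 50, before (x axis) and after (y axis) the length trend was removed, 1 point per tested gene in 4 lists; filled points have an edgeR adjusted p under 0.05 after removal, and the dotted line marks equal values. The median of the mitosis genes is 0.88 before and 0.95 after removal. That of the respiratory chain genes moves down from 1.35 to 0.24, and that of the chromatin regulators moves up from -0.80 to -0.089. Members stay called after removal in both directions, 23 higher and 5 lower in the respiratory chain and 9 and 10 among the chromatin regulators.

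Genes whose call ended with the largest changes included short genes that had risen, such as Rps27 (1.98 before and 0.43 after, edgeR adjusted p = 0.148), Uqcr10 (1.80 before and 0.45 after, edgeR adjusted p = 0.0908) and the spliced RNA Zfas1 (1.89 before and 0.85 after, edgeR adjusted p = 0.0566), and longer genes that had fallen, such as the prolactin receptor Prlr (-2.001 before and -1.11 after, edgeR adjusted p = 0.0615) and the neurotrophin receptor Ntrk2 (-2.15 before and -1.52 after, edgeR adjusted p = 0.0586). Genes called only after removal included the chemokine Ccl21a, from 90.0 ± 20.5 to 39.9 ± 32.3 CPM (-1.18 before and -2.03 after), and Scube3, a secreted protein, from 17.3 ± 3.15 to 28.4 ± 7.32 CPM (0.72 before and 1.48 after). The mitochondrial mt-Nd4l and mt-Atp8, of 297 and 204 bases, had log2 fold changes of -1.19 before and -2.72 after removal and -0.26 before and -1.99 after. Both fell after removal and had no call before it. They lie in the shortest of the 10 bins, where removal lowered the median most, from 1.20 to 0.068, so their falls rest on the size of that correction. Of its bases mt-Atp8 shares 21.1% with mt-Atp6, which rose, by log2 fold changes of 0.55 to 1.76 across the alternatives.

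The other lists had members in both directions or few members called. Of all genes tested 27.5% rose and 28.4% fell before removal, and 25.4% and 23.4% after it. Immediate early genes had 8 that rose and 3 that fell of 19 before removal and 8 and 1 after it, with Fosb (2.59 before and 3.02 after) and Fosl2 (-1.97 before and -1.21 after) the highest and the lowest. The Bcl2 family had 6 and 3 of 15, then 8 and 3, with the pro-apoptotic Bok (1.77 before and 1.43 after) and Bbc3 (1.23 before and 0.86 after) higher and Pmaip1 (-1.70 before and -1.56 after) lower. Matrix proteases and their inhibitors had 7 and 6 of 19, then 6 and 5, with the plasminogen activator Plau higher (1.97 before and 2.06 after) and Adamts2 lower (-1.60 before and -0.87 after). In the unfolded protein and integrated stress response list there were 4 and 2 of 16, then 3 and 4, with Atf4 higher (1.24 before and 1.08 after). Antioxidant genes had 10 and 4 of 23, then 6 and 6, with Gpx4 higher (1.85 before and 0.87 after) and Gstm1, which has close paralogs, lower (-1.72 before and -2.22 after). Heat shock proteins had 3 and 3 of 15, then 2 and 3, with Hspb1 lower (-1.68 before and -2.46 after). Translation factors had 26 and 6 of 55, then 23 and 2. Genes of nonsense-mediated decay and the RNA exosome had 10 and 3 of 18, then 10 and 2. Tubulins and kinesins had 17 and 17 of 50, then 22 and 13. The Notch list had 3 and 6 of 16, then 5 and 4, and the interferon list 2 and 6 of 16, then 2 and 4. Smooth muscle and pericyte genes had 2 and 1 of 13, then 3 and 1, with Des, desmin, higher (2.40 before and 2.66 after). Small leucine-rich proteoglycans had 2 and 2 of 9, then 3 and 2, with Bgn higher (1.85 before and 1.87 after). The ovulation list had 4 and 4 of 11, then 4 and 3, with Runx1 lower (-2.09 before and -1.55 after) and Runx2 higher (1.54 before and 2.17 after). The neuroendocrine list had 3 and 5 of 10, then 3 and 4, with the prohormone convertase Pcsk2 higher (2.89 before and 3.54 after) and the carboxypeptidase Cpe lower (-1.54 before and -1.59 after). Lymphocyte, oviduct and adipocyte lists had 2 and 1 of 6, 0 and 1 of 6, and 0 and 3 of 7 before removal, and 1 and 1, 0 and 1, and 1 and 4 after it. The number of antioxidant and glutathione members that fell was 4 with all libraries and 7 without day 8 replicate 1. The number of unfolded protein and integrated stress response members that rose was 4 with all libraries and 1 without day 50 replicate 1, day 50 replicate 3 or day 65 replicate 1 and 2 without day 50 replicate 2. The number of immediate early genes members that rose was 8 with all libraries and 5 without day 50 replicate 2, day 50 replicate 3 or day 65 replicate 2. The number of Notch pathway members that fell was 6 with all libraries and 2 without day 50 replicate 3 and 3 without day 50 replicate 1 or day 65 replicate 1. The number of matrix proteases and inhibitors members that rose was 7 with all libraries and 4 without day 50 replicate 1. The number of heat shock proteins members that rose was 3 with all libraries and 0 without day 50 replicate 3 and 1 without day 50 replicate 1, day 50 replicate 2 or day 65 replicate 1. The number of neuroendocrine members that fell was 5 with all libraries and 3 without day 50 replicate 1, day 65 replicate 1 or day 65 replicate 2. The number of ovulation response members that fell was 4 with all libraries and 2 without day 50 replicate 3 or day 65 replicate 1. The number of oviduct epithelium members that fell was 1 with all libraries and 3 without day 50 replicate 2 or day 50 replicate 3.

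**Figure D5:**
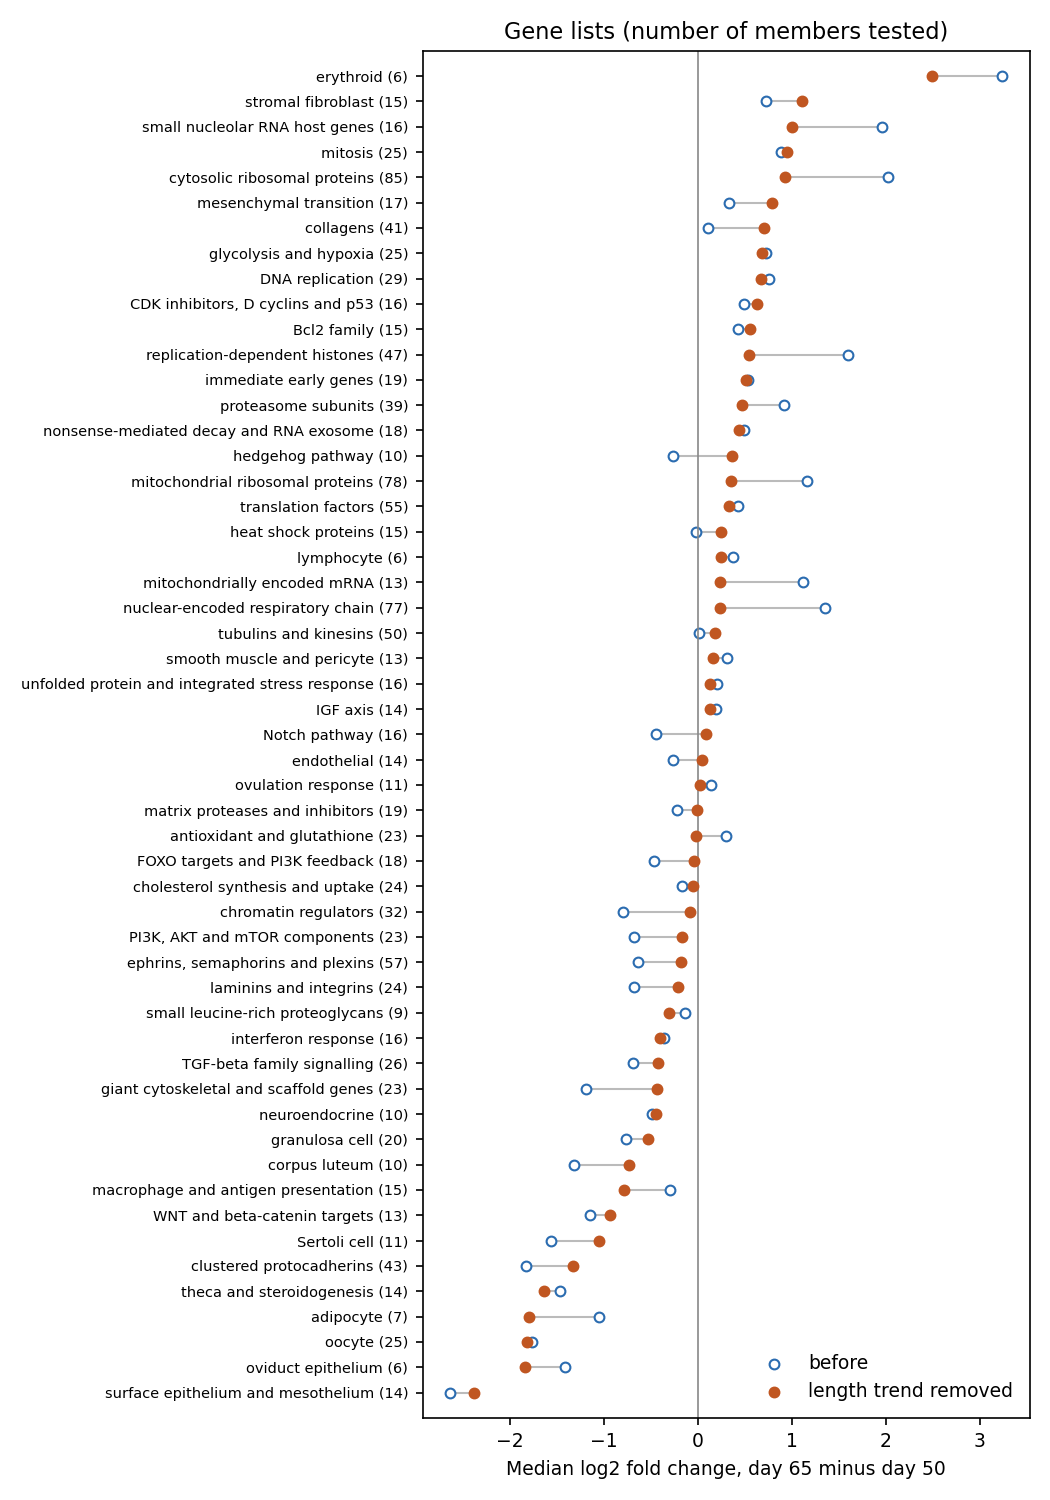
Median log2 fold change, day 65 minus day 50 (x axis), of the tested members of 53 gene lists, 1 list per line with its number of tested members, before (open blue) and after (filled orange) the length trend was removed. The surface epithelium list stays at -2.63 and -2.38 and the mitosis list at 0.88 and 0.95, while lists of short genes, such as the respiratory chain at 1.35 and 0.24, shift to the left.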

How the data were processed

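The libraries were made from total RNA with a NuGEN Universal Plus mRNA-Seq kit, per the labels' protocol. The authors deposited 1 RSEM table of expected counts, lengths and TPM per library, per the file headers, with the build GRCm38 per the submitters' processing notes. Aligner, annotation and strand setting were not given in the sources used here, so reads of overlapping genes are uncertain. Expected counts were rounded, and edgeR 4.0.16 (R 4.3.3) was run with filterByExpr, TMM factors and a robust quasi-likelihood fit on all 9 libraries, with 1 term per age and the contrast of day 65 minus day 50. To remove the length trend, each gene's mean over the 9 libraries was first subtracted from its log2 CPM (prior count 2). A loess curve (span 0.3) of that difference on log2 length was fitted in each library and entered as an offset. The length was 1 value per gene, the mean over the 6 libraries of day 50 and day 65. The deposited TPM, which the authors' RSEM run scaled to the library, served for levels per length alone, and deposited lengths are means over transcripts weighted by abundance. Medians and counts describe lists, which got no test of their own. Over all genes tested the median log2 fold change is -0.055 before and 0.0076 after removal. Exon overlaps come from the reference annotation, and promoters from RefSeq. The tests were run on simulated counts in which far fewer genes changed than were called here. That run does not check the fit under so broad a change. Alternatives were DESeq2 1.42.0, other scalings, filters, libraries and length measures. Genes and lists were chosen with earlier results of these data known. The genes named are the 15 largest rises and falls (exclusions in the results), up to 4 called members of each list, genes whose call changed with the length trend, and other members chosen after their values were seen. Some genes that this rule names are not reported here. For a gene without counts the limit is 0.0545 CPM for day 50 and 0.0671 for day 65, from 3 counts in the group's pooled total, and covers counting error only.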

Additional observations from a re-analysis of the deposited data

How the results depend on the processing

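The number of genes called was 9916, and ran from 8162 (without day 50 replicate 3) to 10931 (without day 8 replicate 1) when each of the 9 libraries was left out. With the length trend removed it was 8665, and 6819 to 9647 in that way, an alternative chosen after seeing the data. The counts under DESeq2 size factors, DESeq2's own test, no ribosomal, mitochondrial or rRNA genes, no filter on low counts, the 6 libraries alone and the removal of length and GC trends stayed within 1.5 times. Testing for a fold of 1.5 left 5705 genes, 2795 higher and 2910 lower. The slope of log2 fold change on log2 length was -0.252 over all genes with a count, -0.313 with annotated exon length, -0.632 for genes of at least 10 CPM and -0.414 without day 65 replicate 1. Across the libraries of both ages left out in turn it ran from -0.507 to -0.414. Whether the replicate numbers pair the libraries was not settled. Correlations of deviations between libraries of the same number were 0.013, 0.020 and 0.031, and between those of different numbers -0.069 to 0.041. Values so small give no sign of pairing but cannot exclude it. With the replicate block 4562 genes rose and 4806 fell, or 4020 and 3826 with the length trend removed. The log2 fold change of some genes changed sign from the fit as reported, where Foxo1, Smad3 and Smad5 had no call. The log2 fold change with length and GC trends removed was 0.051 for Bmpr2, 0.39 for Crebbp, 0.63 for Foxo1, -0.10 for Id1, 0.50 for Insr, 0.29 for Pola1 and 0.66 for Smad5, with no call for Bmpr2, Id1 and Pola1 (edgeR adjusted p = 0.853, 0.720 and 0.127). The log2 fold change with the length trend removed was 0.33 for Crebbp, 0.40 for Insr, 0.091 for Pola1, 0.54 for Smad3 and 0.54 for Smad5, with no call for Pola1 (edgeR adjusted p = 0.603). The log2 fold change with the replicate block and the length trend removed was 0.33 for Crebbp, 0.39 for Insr, 0.086 for Pola1 and 0.54 for Smad5, with no call for Crebbp, Insr and Pola1 (edgeR adjusted p = 0.0856, 0.0537 and 0.624). With the block and the length trend removed, Smad3 had no call (edgeR adjusted p = 0.0774). The cause was not tested. Leaving the ribosomal and mitochondrial genes out gave no value for those 2 lists.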

Other observations

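A few gene families were looked at only after their values were seen. Beside them, 27.5% of all genes tested rose and 28.4% fell before length removal, and 25.4% and 23.4% after it. Of 29 tested Hox genes, which set position along the body axis, 15 rose and 2 fell before length removal and 15 rose and 3 fell after it, with a median log2 fold change of 0.87 before and 0.75 after. MHC class I genes, which present peptides to T cells, had 9 members that rose and 1 that fell of 11 before removal, and 6 and 1 after it, with a median of 1.38 before and 0.79 after. S100 genes, small calcium-binding proteins, had 9 that rose and 1 that fell of 13, then 6 and 2. Claudins, which seal tight junctions, had 0 that rose and 5 that fell of 10, then 0 and 6, with a median of -1.30 before and -1.50 after. Potassium channels had 10 that rose and 20 that fell of 66, then 16 and 17, and nuclear receptors 8 and 19 of 44, then 9 and 11.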
